A study of Danio rerio with 12 samples.

Results

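The corticotropin-releasing hormone (CRH) system and the corticosteroid receptors were examined through 9 genes: the ligand genes crha, crhb and ucn3l, the binding protein gene crhbp, the receptor genes crhr1 and crhr2, the glucocorticoid receptor gene nr3c1, the mineralocorticoid receptor gene nr3c2 and hsd11b2, which encodes an enzyme that inactivates cortisol. The genes were chosen by name from the array annotation, and all 9 were found among 18338 genes, on 13 probe sets. crhr2 had 4 probe sets, crhb had 2, and each other gene had 1. Where a gene had several, the one with the highest mean over the 12 arrays stood for it.

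CRH is released by neurons of the preoptic area and hypothalamus and acts on the pituitary, which releases ACTH, and ACTH in turn makes the interrenal cells of a fish secrete cortisol. Cortisol acts through the glucocorticoid and mineralocorticoid receptors, which in the brain also restrain further CRH release. CRH and its relatives, the urocortins and urotensin I, are also neuromodulators within the brain, where the binding protein limits how much ligand reaches the receptors.

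Whole brains of adult male zebrafish of the wild-type strain AB, 11 months old, were taken after a 30 min test, and 1 brain was hybridized to each of 12 Affymetrix arrays. Every fish spent the night before the test alone in its test tank, the bystanders included. Bystanders watched through a one-way mirror and could not be seen. Chemical cues could not pass between them and the fish they watched. BIC fish watched a fighting pair of males and were attentive, BANIC fish were attentive to a pair that did not interact, BINIC fish were inattentive to such a pair, and ISOL fish had no others to watch. Each group held 3 fish, picked from a larger set as representative of a behavioral profile, so that attention was observed and not assigned. A value is a log2 signal after robust multiarray averaging (RMA), on which a difference of 1 is a 2-fold change, and signals of different probe sets are not compared with each other.

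The 7 neuron marker genes had a mean log2 signal between 9.72 and 9.87 in every fish. The 9 genes of pituitary hormones and a pituitary factor averaged between 4.06 and 4.27. Within this list prl lay between 3.62 and 4.13 and cga between 2.89 and 3.38. Higher were pomca, between 4.842 and 5.205, fshb, between 4.674 and 5.379, and pou1f1, between 4.964 and 5.25. The 6 markers of preoptic and hypothalamic neurosecretory neurons averaged between 6.77 and 7.12. Other tissues varied from fish to fish. The 3 blood genes averaged 6.66 to 8.22 in BIC, 7.41 to 7.66 in BANIC, 6.68 to 7.17 in BINIC and 5.996 to 7.88 in ISOL, with ISOL2 lowest of all. The 9 photoreceptor genes on the array were at 4.52 to 4.68 in BANIC1, BINIC1, BINIC3, ISOL2 and ISOL3 and at 3.56 to 3.74 in the remaining fish. The part of blood, eye tissue or pituitary in the values below was not tested. On the first principal component BIC1, ISOL1 and ISOL3 lay apart from the other arrays. In whole brain, fewer cells of a type and less RNA per cell cannot be told apart.

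None of the 9 genes passed the test in any comparison. A call needed a false discovery rate (FDR) below 0.05 together with a log2 fold change of 1 or more in size. In BIC against ISOL 0 of the 9 were called, where 0.0763% of the 9169 genes past the SD filter were. In BANIC against ISOL 0 were called (background 0.109%), and in BINIC against ISOL 0 were called (background 0.0218%). BIC against BANIC (background 0.0218%), BANIC against BINIC (background 0.0109%), attentive against other fish (background 0.0654%) and all bystanders against ISOL (background 0.0109%) gave 0 as well. A test for any difference among the 4 groups also gave 0, with 0.207% of the genes past the SD filter called. Over the 63 tests the smallest adjusted p was 0.349 from limma. Before adjustment 11 of the 63 had a P under 0.05 in the fits over all genes, where the share of all genes was between 4.22% and 9.31% in the 7 comparisons. The 3 comparisons with ISOL use the same isolated fish, so 1 low or high ISOL value enters each of them.

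The size of difference that these arrays leave possible was read from the 95% intervals of the fits over all genes. Each interval is for the probe set that stood for the gene. The other probe sets of crhb and crhr2 were given no intervals, and some of them differed more. Examples are crhb in BIC against ISOL, at 0.315 (standard error 0.116), and crhr2 in BINIC against ISOL, at -0.465 (standard error 0.127). Of the 27 intervals against ISOL, 26 lay wholly within 1 log2 unit of zero and 19 within 0.5. The exception beyond 1 was ucn3l in BINIC, whose interval ran from 0.19 to 1.21. In BIC and BANIC the intervals that reached past 0.5 belonged to ucn3l and hsd11b2, and in BINIC to crha, ucn3l, crhr2 and hsd11b2. The interval of nr3c1 ran from -0.20 to 0.14 in BIC, from -0.19 to 0.13 in BANIC and from -0.11 to 0.23 in BINIC.

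**Figure D1:**
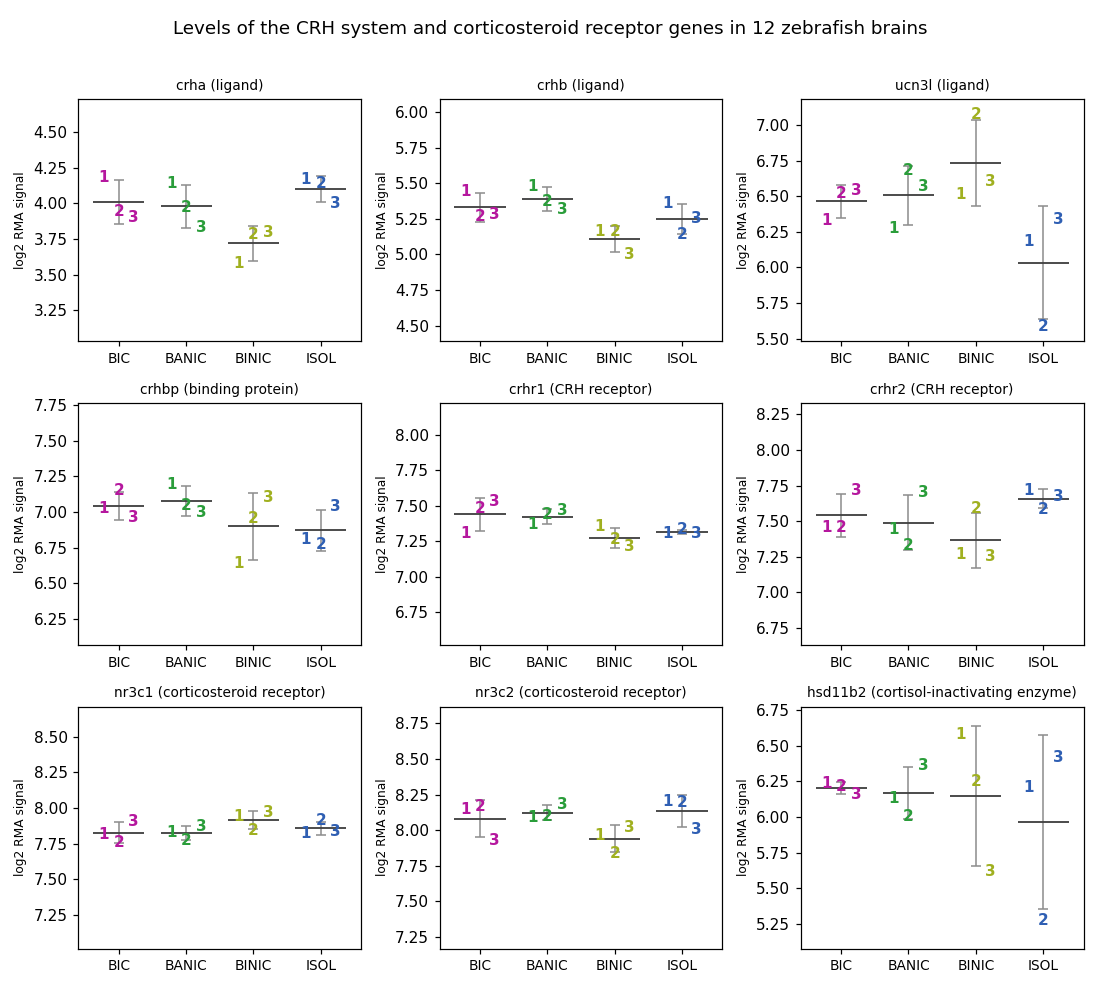
Log2 RMA signal of each of the 9 genes in the BIC, BANIC, BINIC and ISOL groups, with each fish drawn as its replicate number, the group mean as a line and the SD (n = 3) as a bar; every panel spans the same number of log2 units. The digit of ISOL2 lies far below the other fish for ucn3l, at 5.58, and with BINIC3 for hsd11b2, while the 12 values of nr3c1 and crhr1 lie close together.

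By the probe sets that stood for the 9 genes, the ligand genes ucn3l and crha differed most from ISOL. Both did so in BINIC, in opposite directions, and neither passed the test. Other crhr2 probe sets gave -0.45 and -0.47 in BINIC, larger in size than the difference of crha. crha, a gene for CRH itself, had 4.19, 3.94 and 3.90 in BIC fish, 4.14, 3.97 and 3.83 in BANIC fish, 3.58, 3.78 and 3.80 in BINIC fish and 4.17, 4.14 and 4.00 in ISOL fish. The 3 BINIC fish were the lowest of the 12, below each BIC, BANIC and ISOL fish. The log2 fold change in BINIC against ISOL was -0.38 (95% interval -0.59 to -0.17, a 0.768-fold level). The unadjusted limma P was 0.00345 in the fit over all genes, and the adjusted p was 0.483 in the fit past the SD filter. In the same comparison crha, ucn3l and crhr2, 3 of the 9, had an unadjusted P under 0.05 over all genes, against 9.31% of all genes. Past the SD filter the unadjusted limma P of crhr2 was 0.0593. By the probe sets that stood for the genes, the groups did not overlap for crha and ucn3l, 2 of the 9, against 15.8% of all genes. For the other crhr2 probe sets the BINIC and ISOL fish did not overlap either. In BIC and BANIC the differences of crha from ISOL were -0.09 and -0.12, and the fish overlapped. crha was among the dim genes of the array, with a mean of 3.95 against a median of 5.75 over all gene means, and a filter on dim genes removed it.

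crhb, the second gene for CRH in zebrafish, had 5.44, 5.26 and 5.28 in BIC fish, 5.48, 5.37 and 5.32 in BANIC fish, 5.16, 5.16 and 5.001 in BINIC fish and 5.36, 5.14 and 5.25 in ISOL fish. The BINIC fish lay below all BIC and BANIC fish, while ISOL2 lay just under the upper BINIC fish. In BANIC against BINIC the log2 fold change was 0.28 (95% interval 0.10 to 0.47). The unadjusted limma P was 0.00778 in the fit over all genes, and the adjusted p was 0.631 in the fit past the SD filter. This difference rests on 1 of the 2 probe sets. The second one, of mean 3.10, had -0.22 in BANIC against BINIC (adjusted p of 0.769 from limma over all probe sets) and 0.32 in BIC against ISOL, and across the 12 arrays it ran against the first (Pearson r = -0.346, as a description). crhb too was dim, at a mean of 5.27.

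ucn3l, a gene of the urocortin 3 type whose mammalian product binds the type 2 CRH receptor, was the member with the largest difference. It had 6.33, 6.52 and 6.54 in BIC fish, 6.28, 6.68 and 6.57 in BANIC fish, 6.52, 7.08 and 6.60 in BINIC fish and 6.19, 5.58 and 6.34 in ISOL fish. All BINIC fish were above all ISOL fish, with BINIC2 highest and ISOL2 lowest of the 12, and the BIC and BANIC fish overlapped with ISOL. The log2 fold change in BINIC against ISOL was 0.70 (a 1.62-fold level). The unadjusted limma P was 0.0136 in the fit over all genes, and the adjusted p was 0.392 in the fit past the SD filter. Without ISOL2 the log2 fold change was 0.47 (adjusted p of 0.369), and without BINIC2 it was 0.52 (adjusted p of 0.751).

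The other bystanders stood nearer to ISOL. In BANIC the log2 fold change of ucn3l was 0.47 (95% interval 0.01 to 0.94, adjusted p of 0.811 from limma), and it was the 1 member of 9 with an unadjusted P under 0.05, against 5.89% of all genes. In BIC it was 0.43 (95% interval -0.001 to 0.86, adjusted p of 0.872), and over all genes 0 of the 9 had an unadjusted P under 0.05, against 5.63% of all genes. That count depends on the probe set, since the second one of crhb gave 0.315 (unadjusted limma P of 0.0279, adjusted p of 0.891). Past the SD filter the unadjusted limma P of ucn3l in BIC was 0.0385. Without ISOL2 the log2 fold change was 0.25 in BANIC and 0.20 in BIC. Over all 9 bystanders against ISOL ucn3l averaged 6.57 in bystanders and 6.03 in ISOL, a log2 fold change of 0.53 (95% interval 0.19 to 0.88). This was the smallest adjusted p of the system (0.349 from limma). By the probe sets that stood for the genes, ucn3l was the 1 member of 9 with an unadjusted P under 0.05, against 8.17% of all genes. The other crhr2 probe sets, tested on their own, gave -0.235, -0.268 and -0.297 in this comparison. Their unadjusted limma P was 0.0562, 0.0363 and 0.0204, and their adjusted p lay between 0.539 and 0.631. For ucn3l, ISOL1 and ISOL3 lay within or close to the range of the bystanders, and ISOL2 below it.

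The binding protein and the type 1 receptor gave small differences. crhbp, whose product sequesters CRH, had 7.02, 7.15 and 6.96 in BIC fish, 7.19, 7.04 and 6.99 in BANIC fish, 6.64, 6.96 and 7.10 in BINIC fish and 6.81, 6.77 and 7.04 in ISOL fish. BINIC1 was the lowest fish and all groups overlapped. The log2 fold change against ISOL was 0.17 in BIC (95% interval -0.05 to 0.40), 0.21 in BANIC (95% interval -0.02 to 0.44) and 0.03 in BINIC (95% interval -0.28 to 0.34).

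crhr1 encodes the receptor through which CRH drives ACTH release. Its levels were 7.31, 7.48 and 7.53 in BIC fish, 7.37, 7.44 and 7.47 in BANIC fish, 7.35, 7.26 and 7.22 in BINIC fish and 7.30, 7.34 and 7.31 in ISOL fish. Each BANIC fish was above each BINIC and ISOL fish, whereas BIC1 was as low as the ISOL fish. In BANIC against ISOL, where crhr1 was the 1 member whose groups did not overlap, 11.1% of all genes were so divided. The log2 fold change there was 0.11 (95% interval -0.05 to 0.26, adjusted p of 0.894 from limma). crhr1 varied less over the 12 arrays than the median gene and was therefore not among the genes past the SD filter, like nr3c1 and nr3c2.

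**Figure D2:**
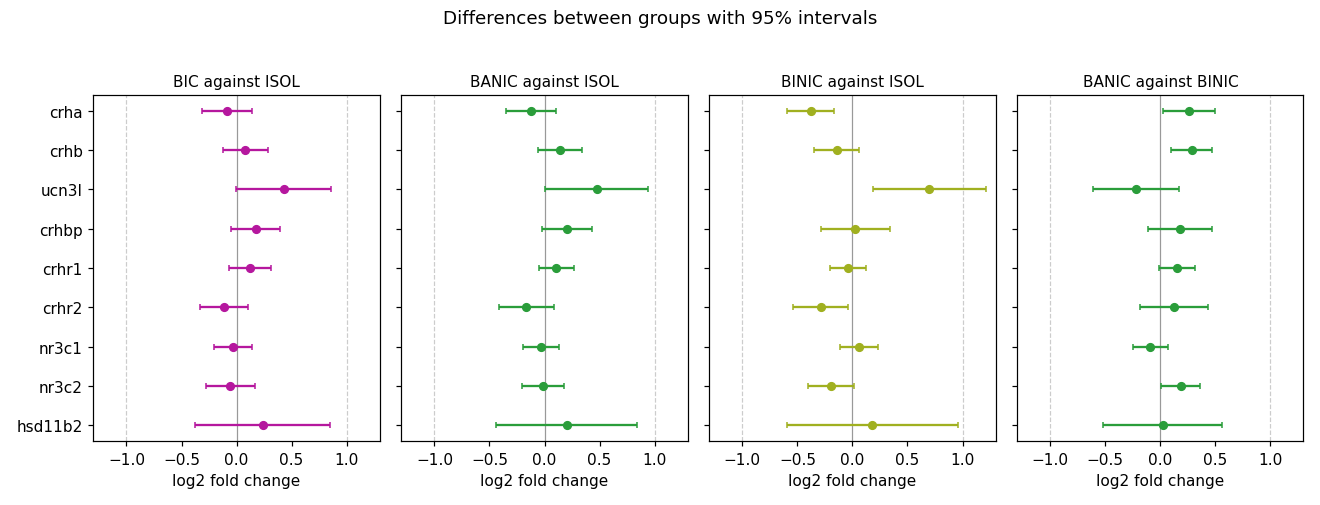
Log2 fold change (horizontal axis) of the 9 genes in BIC, BANIC and BINIC against ISOL and in BANIC against BINIC, with 95% intervals from limma over all genes; dashed lines mark a log2 fold change of 1 in each direction. The interval of ucn3l in BINIC against ISOL, from 0.19 to 1.21, is the one that crosses a dashed line.

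crhr2 encodes the receptor preferred by urocortins in mammals, and its 4 probe sets ran together from fish to fish (Pearson r between 0.893 and 0.959 over 12 arrays for the 6 pairs, as a description). The probe set that stood for the gene had 7.45, 7.46 and 7.71 in BIC fish, 7.44, 7.33 and 7.70 in BANIC fish, 7.26, 7.59 and 7.25 in BINIC fish and 7.71, 7.58 and 7.67 in ISOL fish. BINIC1 and BINIC3 were the lowest of the 12, while BINIC2 matched the lowest ISOL fish. Its log2 fold change in BINIC against ISOL was -0.29 (95% interval -0.54 to -0.04). The unadjusted limma P was 0.0288 in the fit over all genes, and the adjusted p was 0.574 in the fit past the SD filter.

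The other 3 crhr2 probe sets gave larger differences in BINIC against ISOL, of -0.37, -0.45 and -0.47. In each of them the BINIC fish lay below the ISOL fish. The highest BINIC fish was at 6.139, 7.209 and 7.207, and the lowest ISOL fish at 6.198, 7.309 and 7.271. By the probe sets that stood for them, 15.8% of all genes failed to overlap there in either direction. When every probe set was tested on its own, the 4 had unadjusted P between 0.00513 and 0.0291 and adjusted p between 0.403 and 0.502 from limma, so that none passed. In BANIC against ISOL the 4 probe sets gave -0.17 to -0.25, and in BIC against ISOL -0.10 to -0.18. All 4 were thus lower than ISOL in each bystander group without passing the test in any, and they measure 1 gene in the same fish. With BIC1, ISOL1 and ISOL3 left out, a choice made after the data were seen, the gene gave 0.003 in BIC and -0.22 in BINIC against the 1 isolated fish left, ISOL2, which was the lowest ISOL fish for crhr2.

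**Figure D3:**
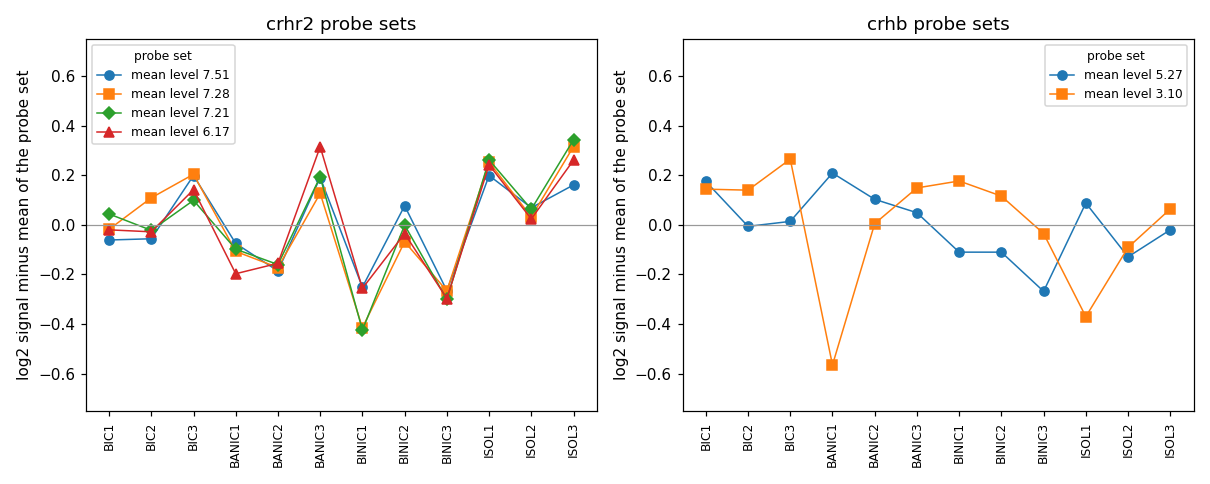
Log2 signal of each probe set of crhr2 (left) and crhb (right) in the 12 fish, minus the mean of that probe set, with arrays ordered from BIC1 to ISOL3 and each probe set named by its mean level. The 4 crhr2 lines run together, lowest in BINIC1 and BINIC3, while the 2 crhb lines part at BANIC1 and ISOL1.

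The corticosteroid receptor genes varied little over the 12 fish. nr3c1, the glucocorticoid receptor gene, had 7.81, 7.76 and 7.91 in BIC fish, 7.83, 7.77 and 7.87 in BANIC fish, 7.94, 7.84 and 7.96 in BINIC fish and 7.82, 7.91 and 7.84 in ISOL fish. The groups overlapped throughout, and its log2 fold change against ISOL was -0.03 in BIC, -0.03 in BANIC and 0.06 in BINIC. nr3c2, the gene of the mineralocorticoid receptor, had 8.14, 8.16 and 7.93 in BIC fish, 8.09, 8.09 and 8.18 in BANIC fish, 7.96, 7.83 and 8.02 in BINIC fish and 8.20, 8.19 and 8.01 in ISOL fish. BINIC fish lay below all BANIC fish and overlapped with BIC and ISOL fish. The log2 fold change of nr3c2 was -0.19 in BINIC against ISOL (95% interval -0.40 to 0.01, adjusted p of 0.552 from limma) and 0.18 in BANIC against BINIC (95% interval 0.01 to 0.36, adjusted p of 0.571).

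hsd11b2 encodes 11-beta-hydroxysteroid dehydrogenase type 2, which turns cortisol into inactive cortisone and in mammals shields the mineralocorticoid receptor. Its levels were 6.24, 6.21 and 6.16 in BIC fish, 6.13, 6.01 and 6.36 in BANIC fish, 6.58, 6.25 and 5.62 in BINIC fish and 6.21, 5.27 and 6.42 in ISOL fish. ISOL2 and BINIC3 stood below the other 10 fish, BINIC1 was highest, and all groups overlapped. The SD within groups was 0.04 in BIC, 0.18 in BANIC, 0.49 in BINIC and 0.61 in ISOL (n = 3 each). The log2 fold changes against ISOL were 0.24 in BIC, 0.20 in BANIC and 0.18 in BINIC, each smaller than the SD of the ISOL fish. Without ISOL2 these differences had the opposite sign, at -0.11, -0.15 and -0.17. ISOL2 was also the fish with the least signal of blood genes, at 5.996, and BINIC3 had 7.17.

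The members of small P in attentive fish were all higher there. Against BINIC and ISOL fish together, the BIC and BANIC fish had log2 fold changes of 0.18 for crhb (95% interval 0.05 to 0.32), 0.18 for crhbp (95% interval 0.01 to 0.34) and 0.14 for crhr1 (95% interval 0.03 to 0.24). These 3 of 9 had an unadjusted P under 0.05 and were higher, where 2.56% of all genes did and were, and 6.49% in either direction. Past the SD filter the adjusted p from limma was 0.791 for crhb and 0.812 for crhbp. For crhr1, over all genes, it was 0.66. The count depends on the fit, since the unadjusted limma P of crhbp was 0.074 past the SD filter. Attentive and other fish overlapped for each gene. The second crhb probe set gave 0.046 (adjusted p of 0.97 from limma over all probe sets). The 9 genes had a median log2 fold change of 0.10 in this comparison, with 8 positive and 1 negative, against a median of -0.01 over all genes.

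BANIC and BINIC fish had the same stimulus and differed in the attention they gave to it. crha, crhb, crhr1 and nr3c2 were each higher in all 3 BANIC fish than in all 3 BINIC fish, as were 5.99% of all genes, and 0 of the 9 were lower in this way, as were 9.28% of all genes. crha averaged 3.98 in BANIC and 3.72 in BINIC fish, a log2 fold change of 0.26 (95% interval 0.02 to 0.50, adjusted p of 0.684 from limma). In this comparison crha, crhb and nr3c2, 3 of the 9, had an unadjusted P under 0.05 over all genes, as had 8.54% of all genes. For crha the unadjusted limma P past the SD filter was 0.0654 in this comparison. The second crhb probe set gave -0.22 there. The median over the 9 genes was 0.15, against -0.02 over all genes. BIC and BANIC fish, both attentive but to different scenes, had no log2 fold change beyond 0.06 either way for the probe sets that stood for the 9 genes, with every interval within 0.5, and 0 of 9 had an unadjusted P under 0.05 (background 4.22%). The second crhb probe set gave 0.32 in BIC against BANIC, and the other 3 of crhr2 gave 0.04 to 0.15 (adjusted p of 1 from limma for each).

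The group means of each member were put in order. The gap between neighbours exceeded the larger of their SDs at 1 step each for 5 of the 9 members: crha (BANIC over BINIC), crhb (ISOL over BINIC), ucn3l (BIC over ISOL), crhr1 (BANIC over ISOL) and nr3c2 (BIC over BINIC). For crhbp, crhr2, nr3c1 and hsd11b2 no such gap did. The fish of neighbouring groups failed to overlap in 2 cases. crha did so between BANIC (3.98) and BINIC (3.72), the lowest group, where 5.99% of all genes were higher in BANIC in this way. crhr1 did so between BANIC (7.42) and ISOL (7.32), where 11.1% of all genes failed to overlap in either direction. BINIC was the lowest group for crha, crhb, crhr1, crhr2 and nr3c2 and the highest for ucn3l and nr3c1. For crhb the order and the gap rest on the brighter probe set. In the second one BINIC was above ISOL (log2 fold change 0.219) and above BANIC (-0.223 in BANIC against BINIC). How often all genes had such gaps or such an order of groups was not counted. In the test for any difference among the 4 groups the unadjusted limma P over all genes was 0.018 for crha, 0.026 for ucn3l and 0.0266 for crhb, where 8.32% of all genes had one under 0.05, and the smallest adjusted p was 0.542.

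Pairs of members were compared across the 12 fish. Of 36 pairs, 5 had a permutation P under 0.05 before adjustment and 0 after it. crhb and nr3c1 ran opposite to each other (Pearson r = -0.687, permutation p = 0.0141, Spearman rho = -0.685, permutation p = 0.0166, adjusted p = 0.277 and 0.298). Without BINIC3 and BANIC1, the fish farthest from the median of crhb, r was -0.576. Pairs with crhb rest on its brighter probe set, to which the second one ran opposite (Pearson r = -0.346, as a description). crha and ucn3l also ran opposite (Pearson r = -0.625, permutation p = 0.0296, Spearman rho = -0.734, permutation p = 0.00858, adjusted p = 0.277 and 0.298), and without BINIC1 and BIC1 r was -0.797. So did ucn3l and nr3c2 (Pearson r = -0.643, permutation p = 0.0222). The rest of the 5 ran together, crha with nr3c2 (Pearson r = 0.617, permutation p = 0.0321) and crha with crhb (Pearson r = 0.602, permutation p = 0.0385). Each of these pairs had an adjusted p of 0.277. With the mean of each group removed r was -0.452 for crhb and nr3c1 (exact permutation within groups, adjusted p = 0.783) and -0.266 for crha and ucn3l (adjusted p = 0.824).

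The genes whose pattern over the 12 fish was most like that of a member were taken from 9163 genes by Pearson r, and since they were picked for that likeness no test is given. For hsd11b2 they were ackr3a (r = 0.963), a scavenger receptor for chemokines, fkbp5 (r = 0.954), a cochaperone of the glucocorticoid receptor that glucocorticoids induce in mammals, and epas1a (r = 0.946), a hypoxia-inducible factor gene. fkbp5 had 8.60, 8.55 and 8.77 in BIC fish, 8.34, 7.98 and 9.001 in BANIC fish, 8.88, 8.74 and 6.35 in BINIC fish and 8.51, 4.50 and 8.74 in ISOL fish. ISOL2 and BINIC3 were the low fish of fkbp5 as they were of hsd11b2, and without them r was 0.779 over the 10 remaining fish. With the mean of each group removed r was 0.968. ISOL2 and BINIC3 were both among the 5 fish of high photoreceptor signal. The others were BANIC1, BINIC1 and ISOL3, with fkbp5 at 8.34, 8.88 and 8.74. Whether eye tissue bears on the levels of fkbp5 or hsd11b2 was not tested.

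**Figure D4:**
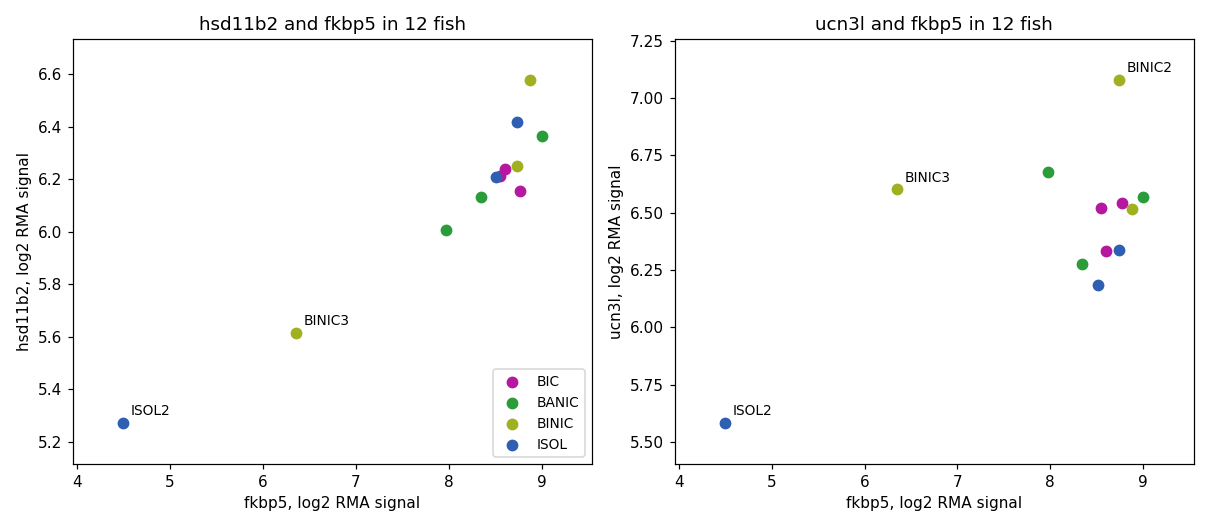
Log2 RMA signal of hsd11b2 (left) and ucn3l (right) against that of fkbp5 in the 12 fish, coloured by group. ISOL2, at 4.50 for fkbp5, and BINIC3, at 6.35, are low on both axes for hsd11b2, while for ucn3l ISOL2 alone is low on both.

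For ucn3l the most similar genes were yme1l1a (r = 0.945), slc4a8 (r = 0.933) and cnnm1 (r = 0.913), and without ISOL2 and BINIC2 these values were 0.729, 0.751 and 0.721. crha was followed most closely by tm4sf5 (r = 0.919), crhb by ankrd24 (r = 0.879), crhbp by exosc6 (r = 0.866) and crhr2 by mst1 (r = 0.915). For crhr1 it was th2 (r = 0.859), a tyrosine hydroxylase gene of dopamine synthesis, followed by sat1b and jund (r = 0.854 each). nr3c1 ran most like atl2 (r = 0.877) and nr3c2 like vps25 (r = 0.897).

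The genes around the system were read from 5 lists of 96 genes, of which 75 were on the array: relatives of CRH, signaling below the CRH receptors, the hormone axis outside the CRH genes, glucocorticoid metabolism, and chaperones and cofactors of the receptors. Of the 75, 0 were called in BIC, BANIC or BINIC against ISOL. An unadjusted limma P under 0.05 was found for 2 in BIC (2.67%, against 5.63% of all genes), 3 in BANIC (4%, against 5.89%) and 13 in BINIC (17.3%, against 9.31%), of which 6 were higher and 7 lower. The median log2 fold change over the 75 genes was -0.01 in BIC, 0.01 in BANIC and 0.01 in BINIC, and over all genes it was -0.01, -0.01 and 0.01.

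hsd11b1lb, of the 11-beta-hydroxysteroid dehydrogenase type 1 family, had the smallest P of these lists in BANIC and BINIC. Its levels were 4.64, 4.15 and 4.56 in BIC fish, 4.57, 4.47 and 4.49 in BANIC fish, 4.38, 4.48 and 4.46 in BINIC fish and 4.12, 4.14 and 4.15 in ISOL fish. The ISOL fish were the lowest of the 12 by a small margin, since BIC2 was level with them. Over all genes, 109 of 18338 had every bystander above every ISOL fish. The log2 fold change was 0.31 in BIC (adjusted p of 0.878 from limma), 0.37 in BANIC (adjusted p of 0.352) and 0.30 in BINIC (adjusted p of 0.339), all from the fits over all genes. uts1, the gene of urotensin I, a CRH relative of fish, had 5.73, 5.70 and 5.68 in BIC fish, 5.63, 5.67 and 5.56 in BANIC fish, 5.45, 5.55 and 5.39 in BINIC fish and 5.30, 5.44 and 5.55 in ISOL fish. All BIC fish were above all ISOL fish, as was so for 859 of 18338 genes. The log2 fold change of uts1 there was 0.27 (adjusted p of 0.873 from limma). Like crha, both genes were dim: every level of hsd11b1lb and uts1 lay below 5.75, the median over all gene means.

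In BINIC against ISOL the smallest P values of the lists lay in genes of several steps, and none passed. Among the relatives of CRH, adcyap1a, a gene of the neuropeptide PACAP, had -0.29, and adcyap1r1b, a gene of its receptor, had 0.20. From the same list vipr2 had -0.23. In the signaling list crtc2, a coactivator of CREB, had -0.38, crebl2 -0.35 and prkar1ab -0.23. On the hormone axis pomcb, 1 of the zebrafish proopiomelanocortin genes, had -0.31, mc3r, a melanocortin receptor gene, had 0.29, and star, whose product brings cholesterol into mitochondria for steroid synthesis, had -0.27. Among the chaperones hsp90aa1.1 had 0.21. Their adjusted p values in these fits lay between 0.435 and 0.519 from limma. Among them star, hsp90aa1.1, vipr2 and adcyap1a had BINIC and ISOL means below 5.75, the median over all gene means. The dimmest were star, at 3.98 in BINIC and 4.25 in ISOL, and hsp90aa1.1, at 4.02 and 3.81.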

How the data were processed

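The authors read the arrays (Affymetrix zebrafish gene 1.1 ST, whole-brain RNA) with oligo and normalized them together by RMA, and they deposited the resulting log2 values, 1 per probe set and array. Values ran from 0.932 to 12.5 and array medians from 5.54 to 5.59. Arrays give no counts, and with 3 fish in a group precision rests on the number of arrays. Of 23467 probe sets, 19283 carry 1 Entrez gene identifier in the platform annotation, for 18338 genes. Of these genes 18243 are in the RefSeq table of another assembly, so no coordinates are given.

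Each gene was represented by its probe set of highest mean. An SD filter kept the 9169 genes that varied over the 12 arrays by more than the median SD (0.127). R 4.3.3 and limma 3.58.1 fitted these genes on the 6 arrays of each pair of groups, with Benjamini-Hochberg adjustment. Of the members 6 passed this filter, and crhr1, nr3c1 and nr3c2 are given from the same fit over all genes. Unadjusted P, shares of all genes and intervals come from the fits over all genes unless stated otherwise. The adjusted p of the members that passed come from the filtered fits. Attentive fish, and all bystanders, were compared in fits over the 12 arrays. Replicates are separate fish. Pair correlations used 100000 permutations.

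The members, lists and tests were chosen with earlier results of these data known. Named genes are the members, up to 3 genes of smallest P per list and comparison, and the 3 genes most like each member; hsd20b2 was named after its values were seen. The procedure was tested on simulated data. Alternatives were other filters, probe set choices, fits, scalings and weights, a replicate block and leaving out each array. Behavior, and batches of hybridization or scanning, were not analysed here.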

Additional observations from a re-analysis of the deposited data

How the results depend on the processing

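No alternative called a member in any comparison or in the test over 4 groups. The 27 log2 fold changes of members against ISOL had 385 alternative values, of which 368 kept their direction, 17 changed direction, and 0 passed the test. Beyond a log2 fold change of 1 lay ucn3l in BINIC against ISOL without BIC1, ISOL1 and ISOL3, at 1.15, without passing. In that fit of 9 arrays, added after the data were seen, ISOL2 is the 1 isolated fish, assumed to vary like the other groups, and 2 genes of the pathway lists were called in BIC and 2 in BANIC, against 0 in the fits reported. They were fkbp5 (log2 fold change 4.16, adjusted p of 0.0201 in BIC, and 3.94, adjusted p of 0.0329 in BANIC) and hsd20b2 (1.77, adjusted p of 0.0187, and 1.65, adjusted p of 0.0329), whose ISOL2 values lay far below those of the other fish.

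The values that changed direction were at most 0.166 in size, and most came from leaving out 1 array. With 1 array left out at a time hsd11b2 ranged from -0.111 (without ISOL2) to 0.462 (without ISOL3) in BIC, from -0.146 to 0.427 in BANIC with the same fish left out, and from -0.166 (without ISOL2) to 0.447 (without BINIC3) in BINIC. nr3c1 ranged from -0.0705 (without BIC3) to 0.00273 (without BIC2) in BIC. nr3c2 ranged from -0.118 (without ISOL3) to 0.0195 (without BIC3) in BIC and from -0.0757 (without ISOL3) to 0.0224 (without ISOL1) in BANIC. crhbp ranged from -0.0741 (without BINIC3) to 0.158 (without BINIC1) in BINIC. With array weights hsd11b2 gave -0.0155 in BINIC and nr3c2 gave 0.00985 in BANIC, and without BIC1, ISOL1 and ISOL3 crhr2 gave 0.00269 in BIC. With 1 array left out at a time, the counts of members and of pathway genes called ranged from 0 to 0. Their cause was not tested.

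Residuals of fish with the same replicate number had correlations between -0.151 and 0.192 over 18 pairs (mean 0.001, against -0.001 for other pairs). Such values cannot show whether fish of the same number shared a day or a batch, which the labels do not give. The fish were not treated as paired in the fits reported. With the replicate number as a block 0 members were called, and the log2 fold change of ucn3l in BINIC was 0.697 (adjusted p of 0.569 from limma). Both crha and crhb were removed by the filter on dim genes and have no value there. With the mean of all probe sets crhb did not pass the SD filter and has no value against ISOL. The same holds for crhb without BANIC1 in BANIC and without BINIC3 in BINIC. Signal near the lower end of the array limits what can be read from crha, and 3 fish per group limit every comparison.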

Other observations

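hsd20b2, the gene of a steroid dehydrogenase that in zebrafish takes cortisone further to an excreted product, was chosen here after its values were seen. It had 7.65, 7.67 and 7.75 in BIC fish, 7.47, 7.58 and 7.70 in BANIC fish, 7.91, 7.94 and 7.01 in BINIC fish and 7.24, 5.94 and 7.98 in ISOL fish. ISOL2 and BINIC3 were its lowest fish, as they were for fkbp5 and hsd11b2. These fish were also the lowest for ackr3a (5.58 in ISOL2 and 5.87 in BINIC3) and epas1a (6.80 and 7.28). The data hold no cortisol values, and the cause of the pattern was not tested. Across the 12 fish the Pearson correlation with hsd20b2 was 0.943 for fkbp5 and 0.915 for hsd11b2, and without ISOL2 and BINIC3 it was 0.533 and 0.581 over 10 fish; these are descriptions of genes picked for this pattern. In the comparisons with ISOL the log2 fold change of fkbp5 was 1.39 in BIC, 1.19 in BANIC and 0.74 in BINIC, with standard errors of 0.829, 0.843 and 0.932, and that of hsd20b2 was 0.64, 0.53 and 0.57 (standard errors 0.374, 0.374 and 0.404), and none passed the test (adjusted p between 0.672 and 0.882 from limma).

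Across the 12 fish the Pearson correlation with fkbp5 was 0.954 for hsd11b2, and for the other 8 members it ranged from -0.402 for nr3c1 to 0.617 for ucn3l. Without ISOL2 the correlation of ucn3l with fkbp5 was -0.0756, and that of hsd11b2 was 0.909. In BINIC3, which was low in fkbp5, hsd11b2 and hsd20b2, ucn3l was at 6.60, within the range of the other BINIC fish.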
